A study of Mus musculus with 13 samples.

Results

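The genes of MHC class II antigen presentation were followed in mouse bone marrow (BM) hematopoietic stem and progenitor cells (HSPCs) of 4 genotypes. The 10 genes were a listed set, found by Ensembl identifier with GENCODE M21 symbols in a deposited table of 54838 genes: *Cd74*, *H2-Aa*, *H2-Ab1*, *H2-Eb1*, *H2-DMa*, *H2-DMb1*, *H2-DMb2*, *H2-Oa*, *Ciita*, and *Ifi30*. All 10 were among the 17795 genes tested.

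RNA was sequenced from 50000 sorted Lin-cKit+ BM cells of each of 13 mice: 3 control mice (*Mx1-Cre*), 3 p53mut mice (*Mx1-Cre* with 1 R172H allele of p53), 3 NrasG12D mice (*Mx1-Cre* with 1 oncogenic *Nras* allele), and 4 NPmut mice (*Mx1-Cre* with both mutant alleles). Every group carried *Mx1-Cre*, a recombinase under an interferon-inducible promoter, on a C57BL/6J background. Control and single-mutant mice, age-matched to the NPmut mice, received 3 injections of 100 μg polyinosinic-polycytidylic acid (pI-pC), an inducer of interferon, at about 6 weeks of age, whereas NPmut mice received none and were collected moribund with acute myeloid leukemia. Genotype, pI-pC, and disease stage therefore cannot be told apart in any comparison with NPmut mice.

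MHC class II molecules are pairs of an α and a β chain that present peptides from endocytosed proteins to CD4+ T cells. CD74, the invariant chain, holds new pairs until the endosome, where proteases cut it, GILT (encoded by *Ifi30*) reduces disulfide bonds of antigens, and the peptide editor H2-DM, restrained by H2-O, loads the peptide. CIITA, the class II transactivator, does not bind DNA itself. It is recruited by RFX, CREB, and NF-Y proteins seated on a conserved X and Y box module just before the start of class II genes. The genes are best known from dendritic cells, B cells, and macrophages, and interferon-γ induces *Ciita* in many other cell types.

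Of the 10 genes, 7 lie within 224.335 kb of chromosome 17 in GRCm38.p6, from 34092340 to 34316674. *Ciita* lies at 10480059 to 10528418 on chromosome 16 and *Ifi30* at 70762774 to 70766663 on chromosome 8. RefSeq promoter windows (GRCm38.p6, 250 bases before to 50 after an annotated start) were at hand for 7 members: *H2-Aa*, *H2-Eb1*, *H2-DMa* (2 starts), *H2-DMb1*, *H2-DMb2*, *H2-Oa*, and *Ifi30*. Both strands were searched for X1-like letters CCNNGNNAC followed after 15 to 40 bases by the Y box letters ATTGG. This pair stood in the windows of *H2-DMb1* and *H2-Oa* and in 1.52% of all 32851 windows. A looser form, CNNNNAAC followed by ATTGG, was written after the windows had been read. It stood in the windows of 5 members, *H2-Aa*, *H2-Eb1*, *H2-DMb1*, *H2-DMb2*, and *H2-Oa*, and in 3.46% of all windows. Each of these 5 held a pair whose first letters lay 35 or 36 bases apart, and *H2-Oa* also held pairs at 32 and 15 bases. Looser pairs at 35 or 36 bases stood in 0.314% of all windows. That distance was taken from these same windows, so its share is a description and no test. For *H2-Oa*, the X1-like letters farthest from the Y box are marked. The stretches of 4 members are shown because they carry this shared module, with the X1-like and Y box letters in capitals, read 5′ to 3′ on the strand of the gene.
H2-Aa: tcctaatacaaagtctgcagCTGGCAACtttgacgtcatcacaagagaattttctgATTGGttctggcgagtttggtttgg
H2-Eb1: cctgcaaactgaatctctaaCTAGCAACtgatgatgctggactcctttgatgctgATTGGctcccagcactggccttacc
H2-DMb2: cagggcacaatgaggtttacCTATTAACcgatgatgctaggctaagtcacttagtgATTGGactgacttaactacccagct
H2-Oa: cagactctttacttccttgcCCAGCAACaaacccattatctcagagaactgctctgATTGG

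The *H2-Aa* stretch is chr17:34287847-34287927 on the minus strand, upstream of every annotated transcript of the gene. The *H2-Eb1* stretch is chr17:34305753-34305832 on the plus strand, upstream of *H2-Eb1* and inside an intron of the antisense gene *Gm20513*. The *H2-DMb2* stretch is chr17:34145103-34145183 on the plus strand, inside an intron of the longer annotated *H2-DMb2* transcript. The *H2-Oa* stretch is chr17:34092280-34092340 on the plus strand and ends at the first base of the annotated *H2-Oa* exon, inside an intron of the antisense gene *BC051537*. *H2-DMb1*, whose X1-like letters CTAGTAAC began at base -97 from its RefSeq start, has the pair inside an annotated first exon, and its stretch is not printed. Neither window of *H2-DMa* nor that of *Ifi30* held either pair. These are letter matches and no measure of binding.

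**Figure D1:**
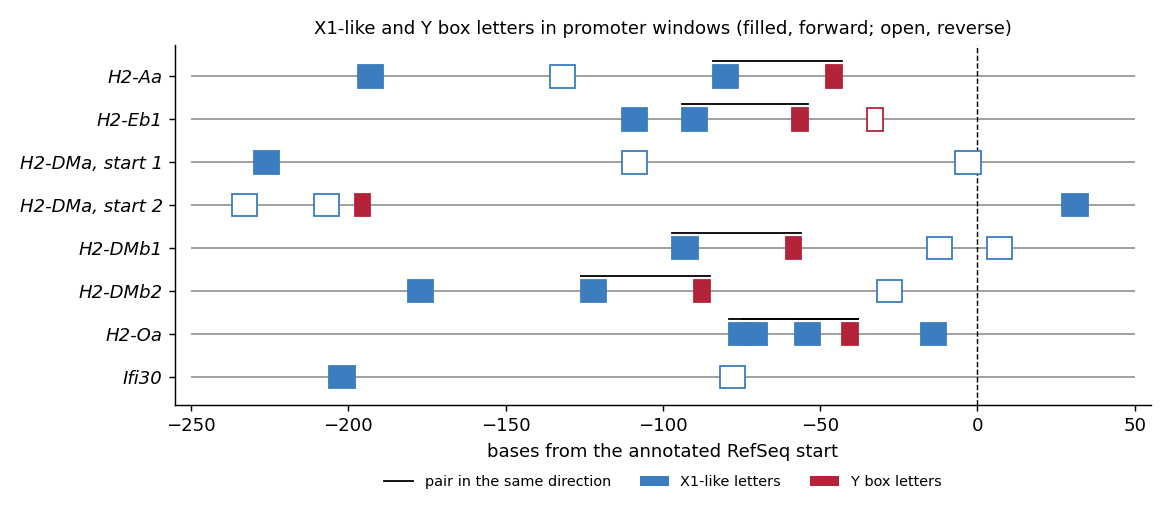
Position of the looser X1-like letters (blue) and of the Y box letters (red) in the 8 RefSeq promoter windows of 7 members, in bases from the annotated start (dashed line); filled boxes read along the gene and open boxes against it, and a black line joins a pair. The windows of H2-Aa, H2-Eb1, H2-DMb1, H2-DMb2, and H2-Oa hold a pair, and the windows of H2-DMa and Ifi30 hold none.

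The libraries held 12576174 to 29124022 counts, NPmut mouse 4 the fewest and NPmut mouse 2 the most. Levels are given as CPM (counts scaled to library size with TMM, the trimmed mean of M values) or, between genes, as RPKM, which also divides by the exonic length. A gene was called when edgeR's quasi-likelihood test gave a Benjamini-Hochberg adjusted p under 0.05 over all genes tested and the change was at least 2-fold. *Nras* stood at 54.6 to 61.4 and *Trp53* at 94.2 to 126 mean CPM in the 4 groups; gene counts do not separate their alleles, so they do not check the genotype labels. The progenitor markers *Kit*, *Cd34*, and *Myb* were present in every library, with *Kit* at 288 to 712 CPM. Reads on 1461 odorant and pheromone receptor genes, which these cells are not known to use, summed to 142 ± 44.7 CPM (SD, n = 3) in control, 98.8 ± 39.4 (n = 3) in p53mut, 41.4 ± 3.33 (n = 3) in NrasG12D, and 34.7 ± 20.3 (n = 4) in NPmut mice. At that density, stray reads would make up 10.7% of the *Ciita* counts in control and 1.11% in NPmut mice, and at most 3.30% of the counts of any other member in control mice.

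In control HSPCs, the class II genes were low. Per length, *Ifi30* was highest at 12.9 ± 1.63 RPKM (SD, n = 3), followed by *H2-DMa* at 8.63 ± 0.975, *H2-Ab1* at 5.84 ± 0.666, *Cd74* at 4.89 ± 1.21, *H2-DMb1* at 3.44 ± 0.291, and *H2-Oa* at 2.81 ± 0.408. *H2-Eb1* (1.15 ± 0.307), *H2-DMb2* (0.809 ± 0.136), *H2-Aa* (0.792 ± 0.172), and *Ciita* (0.243 ± 0.0615) closed the order. The step from *H2-Ab1* to *Cd74* was within the SD of *Cd74*, and that from *H2-DMb2* to *H2-Aa* within the SD of both. In NPmut HSPCs, *Ifi30* (37.3 ± 8.81 RPKM, n = 4) and *Cd74* (33.1 ± 14.9) led and did not differ beyond their spread. *H2-Ab1* (14.7 ± 5.45), *H2-DMa* (11.8 ± 4.61), *H2-DMb1* (7.42 ± 2.29), *H2-Eb1* (6.60 ± 2.40), and *H2-Aa* (5.44 ± 2.43) followed, each step within 1 SD of its neighbor except that from *H2-DMa* to *H2-DMb1*, which was within the SD of *H2-DMa* alone. *H2-Oa* (2.73 ± 0.842), *H2-DMb2* (1.504 ± 0.221), and *Ciita* (0.614 ± 0.323) were the lowest. *Cd74* thus moved from the fourth place to the second and *H2-Oa* from the sixth to the eighth.

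The question of the first comparison was how NPmut leukemic HSPCs differ from control HSPCs. In NPmut HSPCs, 7 of the 10 members were higher, against 2.32% of all genes tested that were called higher. They were *Cd74*, *H2-Aa*, *H2-Ab1*, *H2-Eb1*, *H2-DMb1*, *Ciita*, and *Ifi30*. *H2-DMa*, *H2-DMb2*, and *H2-Oa* were not called, and no member was called lower. For 8 members every NPmut mouse was above every control mouse, against 10.4% of all genes tested. The median log2 fold change was 1.45 over the 10 members and 0.01 over all genes tested.

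Among the invariant chain and the classical chains, *Cd74* stood at 6.61, 10.4, and 6.83 CPM in the control mice and at 75.8, 84.3, 49.1, and 24.5 CPM in the NPmut mice. The 4 NPmut mice were above all controls, mouse 2 the highest and mouse 4 the lowest. The fitted difference was 7.38-fold (log2 2.88 ± 0.43 SE, edgeR adjusted p = 0.0016). *H2-Aa*, the α chain of I-A, was at 3.45, 3.15, and 2.14 CPM in control and at 27.7, 31.7, 18.7, and 8.99 CPM in NPmut mice. It showed the same order of mice and rose 7.51-fold (log2 2.91 ± 0.39 SE, edgeR adjusted p = 0.00053). *H2-Ab1*, its β chain partner, started from a higher base, at 13.3, 16.7, and 13.45 CPM in control against 51.0, 53.5, 33.1, and 21.6 CPM in NPmut mice. It rose 2.76-fold (log2 1.46 ± 0.26 SE, edgeR adjusted p = 0.0035), again without overlap. *H2-Eb1*, the β chain of I-E, was at 1.84, 2.90, and 1.78 CPM in control and at 18.1, 17.6, 9.28, and 9.08 CPM in NPmut mice. Here, NPmut mice 1 and 2 were near each other and well above mice 3 and 4, which were still above every control mouse. The difference was 6.23-fold (log2 2.64 ± 0.32 SE, edgeR adjusted p = 0.00027).

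The peptide editors had smaller fitted differences than *Cd74*. *H2-DMb1*, a β chain of H2-DM, was at 5.12, 6.18, and 5.45 CPM in control and at 12.8, 19.7, 11.4, and 8.82 CPM in NPmut mice. It rose 2.37-fold (log2 1.25 ± 0.25 SE, edgeR adjusted p = 0.0053), and without NPmut mouse 2 the log2 difference was 0.98, under 2-fold. *H2-DMb2*, its close paralog, was at 1.264, 1.67, and 1.17 CPM in control and at 2.78, 3.32, 2.73, and 2.21 CPM in NPmut mice. The groups did not overlap, but the gene missed the threshold (log2 1.02 ± 0.34 SE, edgeR adjusted p = 0.070). It passed with the replicate block (log2 1.11, edgeR adjusted p = 0.037) and by DESeq2 (1.02, adjusted p = 0.027). Only the NPmut group has a replicate 4, so the block takes NPmut mouse 4 out of the group difference. The NPmut mice were close to each other, on 26 to 86 counts per library. Reads that fit both paralogs could have been split between them or dropped. *H2-DMa*, the α chain of H2-DM, was at 30.3, 25.6, and 30.1 CPM in control and at 41.0, 64.1, 45.6, and 20.4 CPM in NPmut mice. NPmut mouse 4 was below all controls, and the log2 difference was 0.58 ± 0.26 SE (edgeR adjusted p = 0.18). *H2-DMa* shares 360 of its 3448 exonic bases with *Brd2* on the opposite strand, which held 4352 to 7370 counts. *H2-Oa*, a chain of the H2-DM inhibitor H2-O, was at 3.74, 3.40, and 4.28 CPM in control and at 4.50, 5.05, 4.34, and 2.21 CPM in NPmut mice. These ranges overlapped, at a log2 difference of 0.09 ± 0.31 SE (edgeR adjusted p = 0.88).

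*Ciita*, the transactivator, was at 1.90, 2.97, and 1.89 CPM in control and at 10.1, 4.63, 6.27, and 3.22 CPM in NPmut mice. All 4 NPmut mice were above the controls, mouse 1 farthest. It rose 2.71-fold (log2 1.44 ± 0.37 SE, edgeR adjusted p = 0.021). This call was lost without control mouse 1 (log2 1.35, adjusted p = 0.086), without control mouse 3 (1.33, adjusted p = 0.10), without NPmut mouse 1 (1.07, adjusted p = 0.069), with only the groups compared (1.44, adjusted p = 0.076), and with the receptor reads as a covariate (1.31, adjusted p = 0.21). That covariate also ended the call of *H2-Ab1*, though its log2 difference was larger (1.70 against 1.46, edgeR adjusted p = 0.056). Stray reads would make up 0.445% of the *H2-Ab1* counts in control mice. Receptor reads themselves differed by group (mean 142 CPM in control and 34.7 in NPmut mice), so the covariate is not separate from the group difference. *Ifi30* was at 10.5, 13.6, and 12.6 CPM in control and at 34.4, 55.2, 33.8, and 31.4 CPM in NPmut mice. It had the smallest error of the 10 genes and rose 3.17-fold (log2 1.66 ± 0.19 SE, edgeR adjusted p = 0.00015). NPmut mouse 4, the shallowest library, was the lowest NPmut mouse for all 10 genes, and mouse 2, the deepest, was the highest for 8 of them; the part of depth in this order was not tested.

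**Figure D2:**
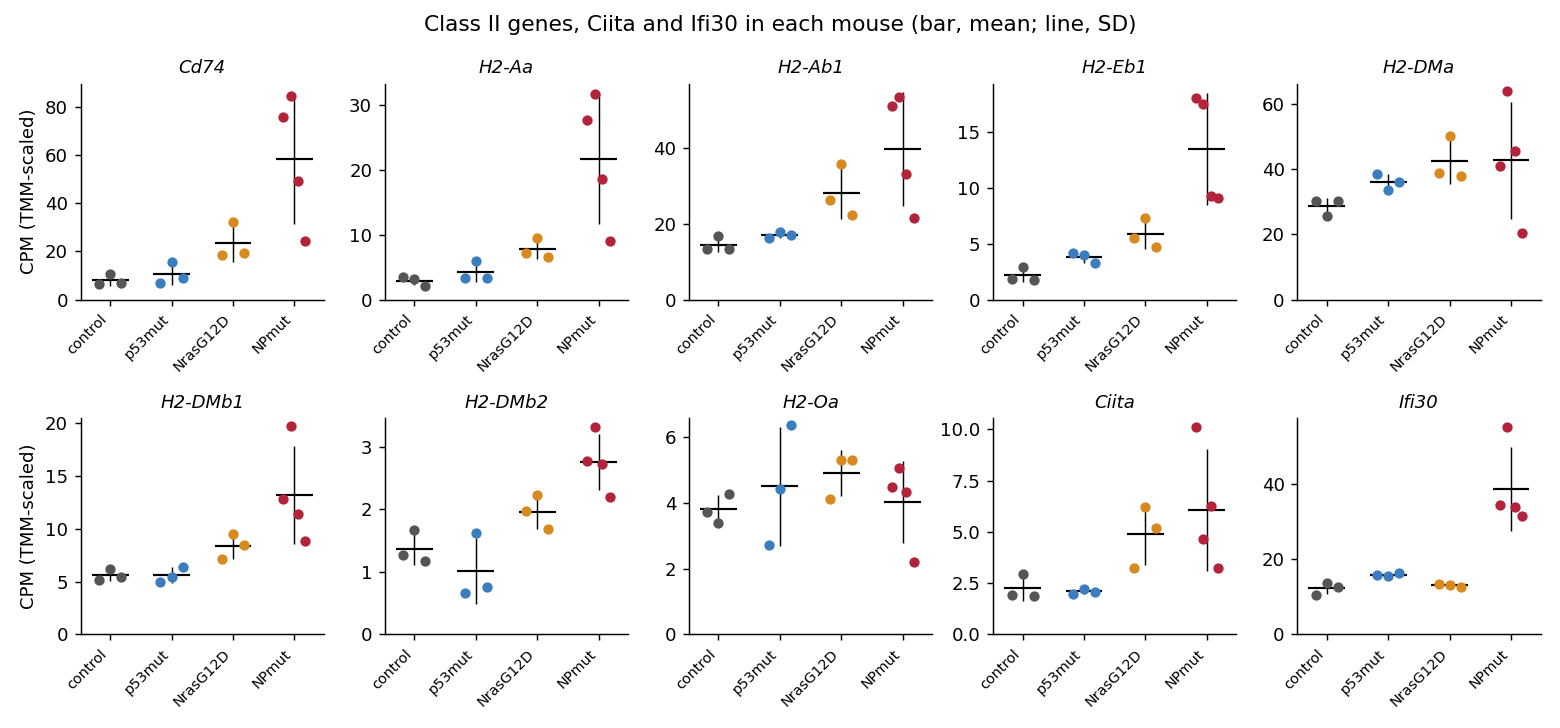
CPM of each of the 10 genes in each of the 13 mice by genotype (dots), with the group mean (bar) and SD (line) on linear axes that start at 0. Cd74 runs from 24.5 to 84.3 CPM in the 4 NPmut mice and from 6.61 to 10.4 CPM in the 3 control mice, whereas the NPmut and control dots of H2-Oa overlap.

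NrasG12D mice were compared with control mice to ask what the *Nras* allele alone does under the same pI-pC treatment. All 10 members had a positive log2 fold change, with a median of 0.77 against -0.01 over all genes tested. None passed edgeR's test, in which 0.00562% of all genes (1 gene) were called higher. An unadjusted p under 0.05 was found for 6 members (9.23% of all genes in either direction), and DESeq2 called 3 of them, *Cd74*, *H2-Aa*, and *H2-Eb1*. In all, DESeq2 called 77 genes here, 46 of them higher. For 8 members all NrasG12D mice were above all control mice, against 10.9% of all genes; *H2-Oa* and *Ifi30* were the exceptions.

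*Cd74* was at 18.4, 32.2, and 19.4 CPM in the NrasG12D mice, all above the highest control mouse. Its log2 difference was 1.55 ± 0.44 SE (edgeR adjusted p = 0.25). *H2-Aa*, at 7.24, 9.50, and 6.54 CPM, had a log2 difference of 1.41 ± 0.40 SE (edgeR adjusted p = 0.24). *H2-Eb1*, at 5.56, 7.34, and 4.73 CPM, had a log2 difference of 1.43 ± 0.33 SE (edgeR adjusted p = 0.15). Mouse 2 was the highest NrasG12D mouse for each of these 3 genes. With replicate number as a block, the 3 genes were called (edgeR adjusted p = 0.0052, 0.012, and 0.024), in a fit that called 28 genes in all. The labels do not say that same-numbered mice belong together. Across genes, same-numbered control and NrasG12D mice deviated from their genotype means with r of -0.10, 0.12, and 0.095. *Cd74*, *H2-Aa*, and *H2-Eb1* were also called when only control and NrasG12D libraries were fitted (edgeR adjusted p = 0.018, 0.026, and 0.043), among 81 genes called. *H2-Ab1* was at 26.3, 35.7, and 22.4 CPM, with a log2 difference of 0.96 ± 0.28 SE (edgeR adjusted p = 0.25). *Ciita*, at 3.24, 6.22, and 5.18 CPM, had a log2 difference of 1.12 ± 0.39 SE (edgeR adjusted p = 0.37). The 3 H2-DM chains were nearer to control: *H2-DMa* at 39.0, 50.2, and 37.9 CPM, *H2-DMb1* at 7.12, 9.50, and 8.48 CPM, and *H2-DMb2* at 1.97, 2.23, and 1.68 CPM. Their log2 differences lay between 0.52 and 0.58. *H2-Oa*, at 4.11, 5.31, and 5.31 CPM, differed by 0.36 ± 0.33 SE on the log2 scale. *Ifi30*, at 13.49, 13.04, and 12.6 CPM, stayed inside the control range (log2 0.09 ± 0.19 SE).

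In p53mut mice, compared with control mice for the p53 allele alone, no member was called by edgeR or by DESeq2, and 0% of all genes passed edgeR's test. Only *H2-Eb1* had an unadjusted p under 0.05, against 2.33% of all genes. For 3 members every p53mut mouse was above every control mouse, against 5.47% of all genes. *H2-Eb1* was at 4.13, 3.98, and 3.24 CPM in p53mut mice (log2 0.80 ± 0.33 SE), *H2-DMa* at 38.7, 33.8, and 35.95 CPM (0.33 ± 0.28 SE), and *Ifi30* at 15.8, 15.5, and 16.4 CPM (0.38 ± 0.19 SE). *Cd74* was at 7.01, 15.8, and 9.09 CPM and *H2-Aa* at 3.32, 5.90, and 3.42 CPM. Mouse 2 was the highest of its group for both, and both groups overlapped with control. *H2-Ab1* (16.4, 17.99, and 17.2 CPM) and *H2-DMb1* (4.94, 5.46, and 6.43 CPM) overlapped with control as well. The same held for *H2-DMb2* (0.664, 1.62, and 0.753 CPM), *H2-Oa* (2.73, 4.42, and 6.37 CPM), and *Ciita* (1.99, 2.21, and 2.08 CPM). The median log2 fold change of the members was 0.29.

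**Figure D3:**
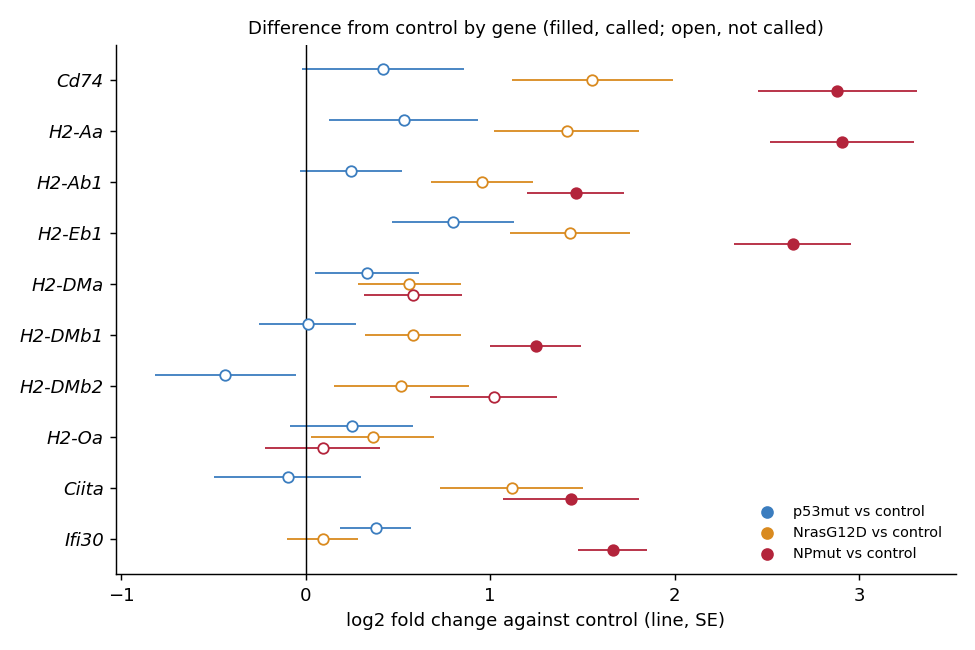
Log2 fold change against control of the 10 genes, with SE (lines), in p53mut, NrasG12D, and NPmut HSPCs; filled symbols passed the call and open symbols did not. The 3 comparisons share the same 3 control mice. Filled symbols are the 7 genes called in NPmut HSPCs, with H2-Aa at 2.91 and Cd74 at 2.88 farthest to the right.

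Direct comparisons between mutant groups placed NPmut HSPCs beside each single mutant. Against NrasG12D, 3 members were called higher (1.81% of all genes): *H2-Aa* (log2 1.49 ± 0.36 SE, edgeR adjusted p = 0.019), *H2-Eb1* (1.21 ± 0.29 SE, adjusted p = 0.019), and *Ifi30* (1.57 ± 0.19 SE, adjusted p = 0.00024). Of these, *H2-Eb1* and *Ifi30* had every NPmut mouse above every NrasG12D mouse (9.34% of all genes), whereas for *H2-Aa* NPmut mouse 4 (8.99 CPM) was below NrasG12D mouse 2 (9.50 CPM). *H2-Aa* and *H2-Eb1* lost the call without NrasG12D mouse 1 or mouse 3 (adjusted p = 0.083 to 0.089) or with only the groups compared (0.064 and 0.069), and *H2-Eb1* also without NPmut mouse 1 (adjusted p = 0.054). *Cd74* missed it at a log2 difference of 1.33 ± 0.40 SE (edgeR adjusted p = 0.058), and passed it without NPmut mouse 4 (1.57, adjusted p = 0.011). *Cd74* was also called with 10 counts required in every library (1.32, edgeR adjusted p = 0.041) and by DESeq2 (1.32, adjusted p = 0.0047). The replicate block called it too (1.61, edgeR adjusted p = 0.00012). That fit also takes NPmut mouse 4 out of the group difference, so it is not separate from the fit without mouse 4. *Ciita* differed by 0.32 ± 0.35 SE, and its NPmut and NrasG12D ranges overlapped. *H2-DMa* differed by 0.02 ± 0.26 SE, with the NrasG12D mice at 37.9 to 50.2 CPM inside the NPmut range of 20.4 to 64.1 CPM.

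Against p53mut, 8 members were called higher in NPmut HSPCs (2.15% of all genes). *H2-DMb2* joined the 7 genes called against control (log2 1.46 ± 0.36 SE, edgeR adjusted p = 0.018), and its 3 p53mut values rested on 9 to 22 counts. The other log2 differences of called genes ran from 1.22 for *H2-Ab1* to 2.47 for *Cd74*. *H2-DMa* and *H2-Oa* were not called. Without p53mut mouse 1 or mouse 3, 5 members were called, *H2-Ab1*, *H2-DMb2*, and *Ciita* being lost (adjusted p = 0.050 to 0.11). The same 3 were lost with only the groups compared (0.052, 0.081, and 0.069), and *H2-Ab1* and *Ciita* with the receptor reads as a covariate (0.053 and 0.12). This comparison and those above share the NPmut mice.

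The interaction term asked whether the NPmut level departs from the sum of the 2 single-mutant changes on the log2 scale. *Ifi30* was the only member called, at 1.19 ± 0.26 SE (edgeR adjusted p = 0.038), against 0.405% of all genes with a positive called term. The terms of the other 9 lay between -0.52 for *H2-Oa* and 0.96 for *H2-Aa*, with adjusted p of 0.39 or above. *Ifi30* had single-mutant differences of 0.09 in NrasG12D and 0.38 in p53mut mice. With the replicate block, which called 366 genes against 239, *Cd74* (1.22, edgeR adjusted p = 0.021) and *H2-Aa* (1.21, adjusted p = 0.038) were called as well. That fit takes NPmut mouse 4 out of the group difference. The *Ifi30* call was lost without any 1 of the 9 control and single-mutant mice (adjusted p = 0.054 to 0.12) and, by falling under 2-fold, without NPmut mouse 2 (0.96).

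Some members also varied together from mouse to mouse, and others less so. After subtracting each genotype's mean log2 CPM, Pearson's r over the 13 mice was 0.92 for *Cd74* with *H2-Aa*, 0.90 for *Cd74* with *H2-Ab1*, 0.88 for *H2-Aa* with *H2-Ab1*, and 0.88 for *H2-Ab1* with *H2-Eb1*. *Ciita* had its highest r with *Cd74*, at 0.67, and -0.02 with *Ifi30*. *Ifi30* had its highest with *H2-DMb1*, at 0.84. Other pairs were low, such as *H2-DMa* with *H2-DMb2* at 0.27 and *H2-Eb1* with *H2-Oa* at 0.20. All points of a mouse share 1 library and its scaling, so these are descriptions. NPmut mouse 4, the shallowest library, was the lowest NPmut mouse for every member. Among the 12968 other genes whose log2 CPM averaged 1 or more, the 5 with the highest r to *Cd74* were *Tent2* (0.97), *Tigd5* (0.92), *Gosr2* (0.91), *Gm8199* (0.91), and *Pggt1b* (0.90). Over all 12968, the median r was 0.04 and the 95th percentile 0.69, above the r of *Ciita* with *Cd74*. *Tent2*, a cytoplasmic poly(A) polymerase, ranged only from 31.5 to 55.2 CPM over the 13 mice, and none of the 5 was called in NPmut against control mice.

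**Figure D4:**
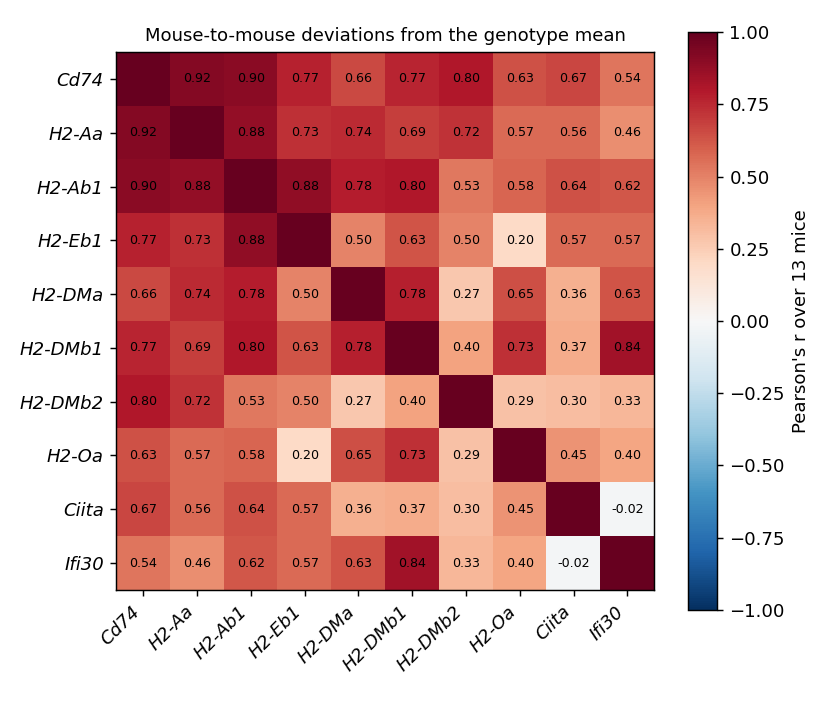
Pearson's r between members over the 13 mice, after each genotype's mean log2 CPM was subtracted; red is positive and blue negative. Cd74, H2-Aa, and H2-Ab1 form the darkest block (0.88 to 0.92), and Ciita with Ifi30 is the only pair below 0.

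No factor that reads the class II promoter was called. None of 7 (*Rfx5*, *Rfxap*, and *Rfxank* of RFX, *Nfya*, *Nfyb*, and *Nfyc* of NF-Y, and *Creb1*) was called in NPmut against control mice by edgeR or DESeq2, none had an unadjusted p under 0.05 (25.6% of all genes did), and their median log2 fold change was -0.08. Their summed level was 471 to 511 CPM in control and 438 to 491 CPM in NPmut mice. None of 7 genes from the interferon-γ receptor to the *Ciita* promoter (among them *Ifngr1*, *Jak1*, and *Irf1*) was called by edgeR or DESeq2, with 4 at an unadjusted p under 0.05. *Ifngr2*, a receptor chain, had the largest difference, at 27.7, 31.3, and 22.8 CPM in control and 53.8, 71.6, 44.0, and 41.6 CPM in NPmut mice (log2 0.95 ± 0.19 SE, edgeR adjusted p = 0.0058), short of 2-fold. In neither single-mutant group was a gene of these lists called by edgeR or DESeq2.

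Of 7 endosomal proteases and loading cofactors, 3 rose in NPmut HSPCs. *Ctss*, cathepsin S, which makes the last cuts in the invariant chain, was at 14.2, 14.3, and 8.97 CPM in control and 68.2, 119, 77.6, and 46.5 CPM in NPmut mice (log2 2.64 ± 0.29 SE, edgeR adjusted p = 0.00017). It was at 19.5, 28.7, and 29.1 CPM in NrasG12D mice, above all controls (log2 1.04), where DESeq2 called it and edgeR did not (adjusted p = 0.24). *Lgmn*, the asparaginyl endopeptidase legumain, rose by 2.12 ± 0.55 SE (adjusted p = 0.022), and *Cst3*, a cathepsin inhibitor, by 1.03 ± 0.28 SE (adjusted p = 0.031). The *Lgmn* call was lost without any 1 control mouse or NPmut mouse 1 (adjusted p = 0.058 to 0.094), with only the groups compared (0.053), and with the receptor reads as a covariate (0.11). That of *Cst3* was lost without any 1 control mouse or NPmut mouse 1 (adjusted p = 0.056 to 0.13), with no filter on low counts (0.12), and with only the groups compared (0.093). *Cst3* also fell under 2-fold without NPmut mouse 2, with library totals, and with 10 counts required in every library. *Ctsl*, *Ctsb*, *Ctsd*, and *Sppl2a* were not called; *Ctsb* had an edgeR adjusted p of 0.033 at 0.63 on the log2 scale.

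A pair of ubiquitin ligases that act on class II differed in opposite directions, where 3.69% of all genes were called lower. *March1*, which marks surface class II for turnover, was at 0.977, 0.185, and 0.612 CPM in control and 4.19, 4.63, 3.38, and 2.71 CPM in NPmut mice (log2 2.64 ± 0.54 SE, edgeR adjusted p = 0.0064). Its call was lost with the receptor reads as a covariate (log2 2.71, edgeR adjusted p = 0.076). *March8*, a related ligase, was at 33.6, 36.1, and 41.6 CPM in control and 16.2, 10.7, 18.6, and 20.02 CPM in NPmut mice, and fell by 1.19 ± 0.18 SE on the log2 scale (adjusted p = 0.00094). The costimulatory genes *Cd80* and *Cd86* were not called in NPmut against control mice, and *Cd40*, at most 0.509 CPM, was too low to test. Of these ligase and costimulatory genes, edgeR called 2 higher in NPmut against p53mut mice and 1 in the interaction. DESeq2 also called 2 and 1, *March1* and *Cd80* in the former and *Cd80* in the latter. *Cd80* was near its floor, at a mean of 0.480 CPM in control, 0.0491 in p53mut, 0.0193 in NrasG12D, and 0.593 in NPmut mice. Of the class II genes outside the 10, *H2-Ob*, the other chain of H2-O, was at 8.59 to 11.01 CPM in control and 6.62 to 16.1 CPM in NPmut mice (log2 0.16, edgeR adjusted p = 0.78), and *H2-Eb2*, at most 0.309 CPM, was too low to test.

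Markers of other cell types that could lie in the Lin-cKit+ gate also differed between the groups. In bulk RNA, more cells of a type and more RNA per cell cannot be told apart. Of 10 dendritic cell markers, 8 were tested, and 5 were higher in NPmut HSPCs: *Irf8* (at 130, 141, and 134 CPM in control and 490, 616, 390, and 445 CPM in NPmut mice), *Flt3*, *Itgax*, *Clec9a*, and *Siglech*. *Zbtb46*, a classical dendritic cell factor, was lower (log2 -1.09, edgeR adjusted p = 0.026). *Clec9a* did not exceed 7.48 CPM, *Siglech* 2.57 CPM, and *Xcr1* 1.21 CPM in any mouse, and *Cd209a* was at 0 in all 3 NrasG12D mice. The 10 markers summed to 221 to 248 CPM in control, 230 to 285 in p53mut, 314 to 409 in NrasG12D, and 579 to 746 in NPmut mice. *Irf8* (mean 135 CPM in control and 485 in NPmut mice) and *Flt3* (71.8 and 159 CPM), also listed as an HSPC marker, made up most of this sum. Among NPmut mice, mouse 2 was the highest and mouse 4 the lowest, as for *Cd74*. The same mice were highest and lowest in the summed monocyte and macrophage markers and the summed B cell markers below. Of 10 monocyte and macrophage markers, 9 were tested and 4 were higher in NPmut HSPCs (*Csf1r*, *Ccr2*, *Cx3cr1*, and *Cd68*); DESeq2 called these and also *Ly6c2* and *Adgre1*. *Ly6c2*, at 75.5, 103, and 84.4 CPM in control and 211, 425, 159, and 177 CPM in NPmut mice, was not called by edgeR (adjusted p = 0.063), and *C1qa* did not exceed 0.926 CPM. These markers summed to 209 to 228 CPM in control, 154 to 319 in p53mut, 186 to 258 in NrasG12D, and 420 to 875 in NPmut mice. In NrasG12D mice, edgeR called none of either list, while DESeq2 called *Flt3*. The part of dendritic cell and monocyte markers in the differences of the members was not tested.

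**Figure D5:**
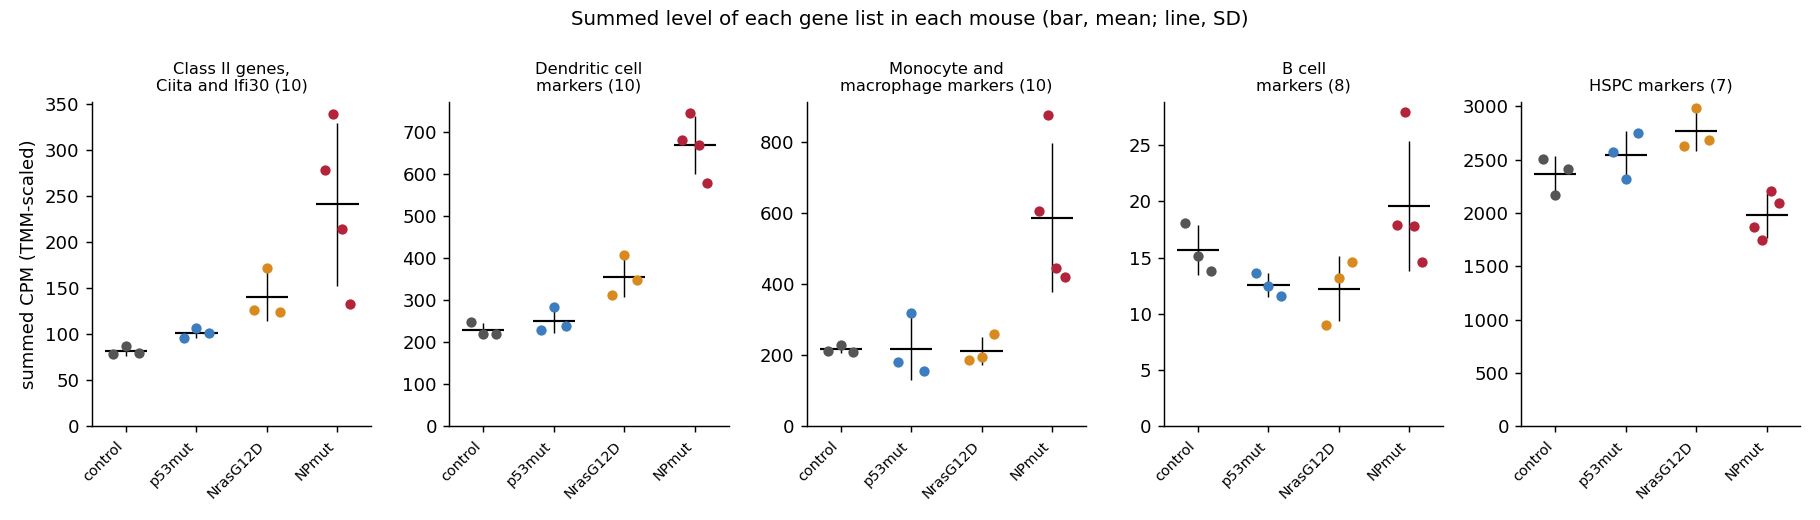
Summed CPM of the 10 members and of 4 marker lists in each mouse by genotype (dots), with group mean (bar) and SD (line). The sums of the members and the dendritic cell markers are highest in NPmut mice (132 to 339 and 579 to 746 CPM) and next in NrasG12D mice (124 to 171 and 314 to 409 CPM), whereas the monocyte and macrophage sum of NrasG12D mice (186 to 258 CPM) spans the control range. Irf8 and Flt3, the latter also an HSPC marker, make up most of the dendritic cell sum. Zbtb46 goes the other way, at a mean of 20.8 CPM in control, 13.1 in NrasG12D, and 9.85 in NPmut mice.

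B cell markers were near their floor: none of 5 tested of 8 was called by edgeR or DESeq2 in NPmut mice, with 2 at an unadjusted p under 0.05. *Cd79b*, at 9.22 to 12.05 CPM in control and 13.6 to 24.6 CPM in NPmut mice, made up most of their sum, and *Pax5* did not exceed 3.05 CPM. *Ms4a1* was at 0 in 2 NPmut and 2 NrasG12D mice. The 6 T and NK cell markers summed to at most 3.49 CPM, with 1 tested and none called by edgeR or DESeq2; *Cd3e* was at 0 in 3 of 4 NPmut mice. Of 6 neutrophil markers only *Mmp8* was higher (log2 1.31, edgeR adjusted p = 0.035), and *S100a9* and *Ltf* had overlapping ranges. Of 6 endothelial and stromal markers, *Kdr* and *Col1a2* were lower, while *Pecam1* differed by 0.65 (adjusted p = 0.0021). The 7 HSPC markers summed to 2169 to 2504 CPM in control and 1744 to 2204 CPM in NPmut mice. *Flt3* was higher and *Gata2* lower, and *Kit*, which defined the gate, differed by -0.54 (edgeR adjusted p = 0.032).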

How the data were processed

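RNA-Seq libraries (SMARTer Stranded Total RNA-Seq Pico kit) were made from sorted cells of 13 mice. The authors deposited 1 table of raw counts per gene. The submitters' processing notes name STAR 2.6.1d, R 3.6.1, DESeq2 1.26.0, and GRCm38.p6; the counting program and its strand setting are not given in the sources used here, so reads of overlapping antisense genes may be mixed. Genes were named from GENCODE M21. The test was the robust quasi-likelihood fit of edgeR 4.0.16 under R 4.3.3 (all 13 libraries, filterByExpr, TMM), with DESeq2 1.42.0 as an alternative. SE is the log2 fold change divided by the square root of F. CPM used the summed counts of tested genes and TMM; RPKM used library totals and the union of exons. Log2 CPM used a prior count of 2.

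The members and lists were chosen with earlier results of these data known. Named were all 10 members, the pathway genes called in any comparison, the 2 most abundant genes and those at 0 of each marker list, and the 5 genes most like *Cd74*; other genes were named after their values were seen, and a few list genes are not reported here. Same-numbered control and p53mut mice deviated together (r = 0.15 to 0.17 across genes in all 3 pairs), other group pairs not throughout. The fit with replicate number as a block was an alternative. Replicate 4 exists only in the NPmut group, so in that fit NPmut mouse 4 adds nothing to the group differences. The labels give 1 library per mouse, and no 2 libraries of the same group agreed within counting noise. Chi-square per degree of freedom was 88.0 to 104 between NPmut mouse 2 and the other NPmut mice. It was 22.4 to 32.8 among those other NPmut mice and 12.1 to 18.2 within the other groups. Mouse 2 was also the deepest library, and the part of depth was not tested. The statistical scripts were tested on simulated counts. RefSeq promoter windows were searched with Python 3.11.15.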

Additional observations from a re-analysis of the deposited data

Results flagged for a closer look

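*Ifi30* in NPmut mice was flagged because 1 mouse stood far from the other three. NPmut mouse 2 was at 55.2 CPM, and the other NPmut mice were at 34.4, 33.8, and 31.4 CPM. Its gap to the nearest mouse was 0.875 of the range of the group, above Dixon's critical value for 4 values. Chance flags about 1 in 20 such groups, and the NPmut values of 10 genes were examined. Mouse 2 was also the deepest library, and without it *Ifi30* was still called against control.

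*Ifi30* was flagged a second time because its change with the *Nras* allele differed between mice with and without the p53 allele. The interaction term was 1.19 on the log2 scale (edgeR adjusted p = 0.038). NPmut mice, unlike the other groups, received no pI-pC and were moribund, and that cannot be told apart from the combination of alleles.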

How the results depend on the processing

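Members called in NPmut against control mice numbered 5 to 8 under 8 alternatives, 6 to 7 when 1 mouse was left out. Genes called were 638 when 10 counts were required in every library, 607 with receptor reads as a covariate, and 651 with only the groups compared, against 1069. They were 1568 with no filter on low counts, 1323 by DESeq2, and 1289 with the replicate block. With 1 mouse left out they were 586 to 1252, the fewest without control mouse 3. For NrasG12D against control, 3 members and 77 genes were called by DESeq2, 2 and 159 with no filter on low counts, 3 and 28 with the replicate block, and 3 and 81 with only the groups compared, against 0 and 1. Genes were 3 with RLE size factors and 0 with library totals or the covariate; left-out mice gave 0 members and 0 to 2 genes. For p53mut against control, genes were 3, 9, and 1 under DESeq2, no filter, and only the groups compared, 25 in a block fit of those 6 libraries added after seeing the data, and 0 to 1 with 1 mouse left out, against 0; members stayed at 0. For NPmut against NrasG12D, only the groups compared gave 1 member and 440 genes, against 3 and 785. DESeq2 gave 989 genes, no filter 946, and the 10-count filter 554. Left-out mice gave 1 to 4 members and 444 to 991 genes. For NPmut against p53mut, only the groups compared gave 5 members and 478 genes, against 8 and 933, and the 10-count filter 597 genes. DESeq2 gave 1187 genes, no filter 1205, and the covariate 642. Left-out mice gave 5 to 8 members and 433 to 1152 genes. For the interaction, DESeq2 gave 619 genes, no filter 651, and the replicate block 3 members and 366 genes, against 1 and 239; left-out mice gave 0 to 1 members and 61 to 531 genes.

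No called member changed sign; the cause of the shifts was not tested. Uncalled log2 differences near 0 did. With library totals, *H2-Oa* in NPmut against control was -0.029, *H2-DMb1* in p53mut against control -0.018, and *H2-DMa* in NPmut against NrasG12D -0.063. With the 10-count filter, *H2-DMb1* in p53mut against control was -0.0032, and with the replicate block *H2-Oa* in NPmut against p53mut was 0.085. With 1 mouse left out, the ranges that crossed 0 were -0.034 to 0.27 for *H2-Oa* in NPmut against control. In p53mut against control they were -0.095 to 0.094 for *H2-DMb1*, -0.085 to 0.51 for *H2-Oa*, and -0.20 to 0.14 for *Ciita*. In NPmut against NrasG12D they were -0.25 to 0.23 for *H2-DMa* and -0.041 to 0.54 for *Ciita*. In NPmut against p53mut they were -0.015 to 0.47 for *H2-DMa* and -0.42 to 0.17 for *H2-Oa*. The single-gene alternatives outside the first 2 comparisons, and those of pathway genes, were added after seeing the data. Library depth was not equalised.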
